A study of Mus musculus with 8 samples.

Results

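The genes followed here are 10 that the unfolded protein response uses to carry a heavy secretory load, and they were measured in 16 MMTV-PyMT mammary tumours: Xbp1, Hspa5, Hsp90b1, Serp1, Dnajb9, Dnajc3, Sdf2l1, Creld2, Pdia4 and Herpud1. They were found among the array probes by the gene name or RefSeq accession that the array files give for each probe. All 10 genes had a probe, 11 probes in all, each well above background in 16 of 16 tumours, and they are 10 of the 14125 genes tested.

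The endoplasmic reticulum (ER) is where secreted proteins, milk proteins among them, are folded, given disulphide bonds and checked. When unfolded protein accumulates there, the sensors IRE1, PERK and ATF6 signal to the nucleus. IRE1 splices the RNA of Xbp1 into the form that encodes an active transcription factor, and ATF6 and XBP1 then raise the chaperones, folding enzymes and degradation factors of the ER. The mammary gland enlarges its ER at the onset of lactation, and milk protein genes can remain active in mammary tumours.

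Pieces of MMTV-PyMT carcinoma of the FVB strain had been placed orthotopically into wild-type FVB mice, so every group carried the PyMT oncogene, which the MMTV promoter drives mainly in mammary epithelium, and the host's own stroma and immune cells were present. Treated mice received RANK-Fc, which binds RANK ligand in place of its receptor, given into the peritoneum at 10 mg/kg and 3 times per week; control mice had no RANK-Fc. Passage 1 held 2 control tumours and 3 tumours with RANK-Fc. Passage 2 held 2 controls, 3 tumours with RANK-Fc in passage 2 alone (labelled adjuvant, called current here), 3 with RANK-Fc in passage 1 alone (labelled neoadjuvant, called prior) and 3 with RANK-Fc in both passages (called prior and current). Reading neoadjuvant as treatment in passage 1 follows the group codes. The labels give each tumour an animal code of its own, but not which passage 1 tumour seeded which passage 2 tumour, nor the age of the mice.

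Each tumour was 1 channel of a two-colour Agilent array, with 8 arrays on 1 slide. Between 47.5% and 56.5% of the spots of a channel were well above background. Luminal epithelial markers were at a mean log2 level of 12.57 to 12.85 in the 16 tumours, with all 12 measured. Levels are log2 of normalised intensity throughout, where 1 unit is a doubling, and they are compared between tumours for 1 gene, never between genes. These are pieces of bulk tumour, so fewer cells of a type and less RNA per cell cannot be told apart.

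The promoters of 5 of the genes hold a known ER stress element, and they are printed because these genes are the classical direct targets of the pathway and did not share 1 pattern in the tumours. The sequences are the 250 bases before the annotated RefSeq start on build GRCm38.p6, read 5′ to 3′ along the gene's strand, at chr2:34771840-34772089 (plus strand) for Hspa5, chr10:86705445-86705694 (minus) for Hsp90b1, chr14:118937682-118937931 (plus) for Dnajc3, chr15:88819396-88819645 (plus) for Creld2 and chr8:94386179-94386428 (plus) for Herpud1. Capitals mark the matches to the ER stress element (ERSE) in the first 4 and to ERSE-II in Herpud1.
Hspa5: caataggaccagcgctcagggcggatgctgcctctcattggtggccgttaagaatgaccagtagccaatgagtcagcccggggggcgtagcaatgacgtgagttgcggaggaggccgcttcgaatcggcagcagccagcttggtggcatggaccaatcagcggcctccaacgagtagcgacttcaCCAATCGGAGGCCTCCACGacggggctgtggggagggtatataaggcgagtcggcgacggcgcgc
Hsp90b1: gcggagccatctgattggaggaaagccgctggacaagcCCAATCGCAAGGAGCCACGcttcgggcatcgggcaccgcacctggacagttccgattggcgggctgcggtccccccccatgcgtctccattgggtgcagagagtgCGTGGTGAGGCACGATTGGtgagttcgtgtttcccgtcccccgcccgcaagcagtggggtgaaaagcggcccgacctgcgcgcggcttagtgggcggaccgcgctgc
Dnajc3: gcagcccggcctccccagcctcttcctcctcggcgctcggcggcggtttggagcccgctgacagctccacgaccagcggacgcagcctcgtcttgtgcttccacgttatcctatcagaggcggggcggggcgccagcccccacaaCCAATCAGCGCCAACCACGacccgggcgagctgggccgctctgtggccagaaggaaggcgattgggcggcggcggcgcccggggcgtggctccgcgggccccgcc
Creld2: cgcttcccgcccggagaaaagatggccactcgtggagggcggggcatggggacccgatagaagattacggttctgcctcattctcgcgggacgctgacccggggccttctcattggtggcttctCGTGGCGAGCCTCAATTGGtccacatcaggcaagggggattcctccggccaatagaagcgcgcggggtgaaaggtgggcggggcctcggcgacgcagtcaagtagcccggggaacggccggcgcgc
Herpud1: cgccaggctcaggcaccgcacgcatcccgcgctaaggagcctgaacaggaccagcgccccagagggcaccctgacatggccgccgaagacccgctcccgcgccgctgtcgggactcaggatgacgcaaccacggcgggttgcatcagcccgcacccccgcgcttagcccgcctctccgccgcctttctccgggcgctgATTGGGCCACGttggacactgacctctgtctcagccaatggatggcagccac

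The letters searched were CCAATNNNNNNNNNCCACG for ERSE and ATTGGNCCACG for ERSE-II, on both strands, over windows that run from 250 bases before to 50 after a start. Hsp90b1 held 2 matches to ERSE, and Hspa5, Dnajc3 and Creld2 held 1 each. ERSE was in the windows of 4 of the 10 genes and in 0.119% of 32851 RefSeq windows of that length (39 windows). ERSE-II was in Herpud1 alone among the 10 and in 0.0365% of all windows (12). The match in Hspa5 began 65 bases before the start, and that in Herpud1 began 52 bases before it. The core of the XBP1-binding element, TGACGTGG, was in none of the 10 windows and in 0.676% of all. Both short parts of ERSE are common: CCAAT was in 9 of the 10 windows against 37.4% of all, and CCACG, which lies within ERSE and ERSE-II, in 9 against 32.8%. A match is a string of letters and not a measured binding site.

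Across the 6 groups, Herpud1 and Xbp1 differed in level by limma's moderated F test, and the other 8 genes did not pass. The 2 genes that passed are set against 674 of all 14125 genes, or 4.77%. With so few members that share cannot be compared closely. In that F test 2864 of the 14125 genes had an unadjusted p under 0.05, among them 4 members: Herpud1, Xbp1, Serp1 and Dnajc3. The range over 16 tumours had a median of 0.92 over the members and 0.75 over all genes tested. Xbp1 had the widest range of the 10, 1.46, and Creld2 the narrowest, 0.66. The 2 calls were not equally firm. Herpud1 passed with 14 of 16 single tumours left out, while Xbp1 passed with 2 of 16.

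**Figure D1:**
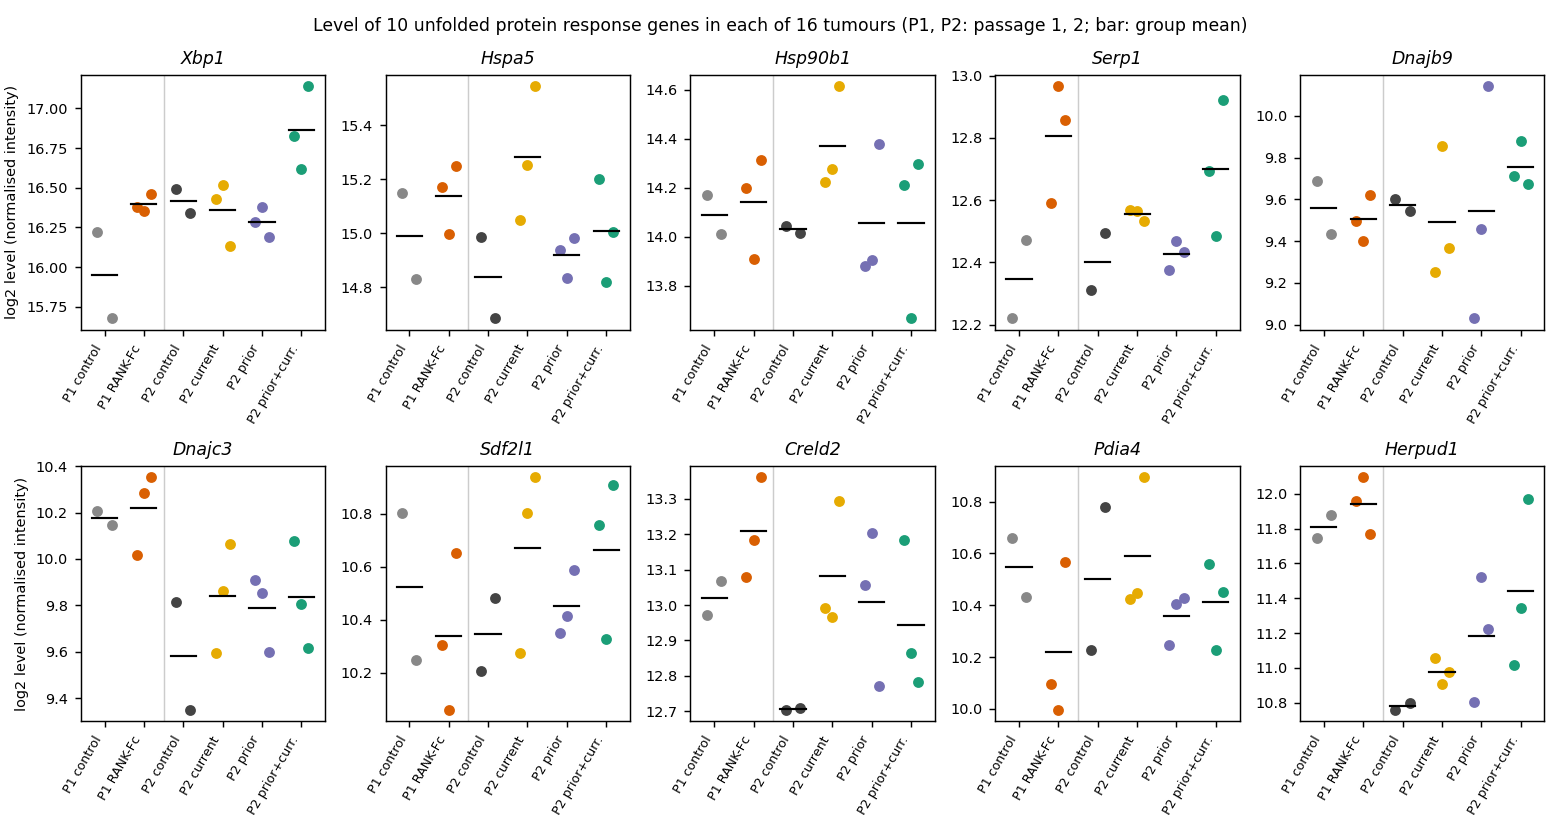
Log2 level of each gene (vertical axis, normalised intensity, own scale per panel) in each of the 16 tumours, grouped on the horizontal axis by passage and RANK-Fc; points are tumours and bars are group means. The 3 Xbp1 points of the prior and current group, 16.62 to 17.14, lie above the other 13 tumours, and the 5 Herpud1 points of passage 1, 11.74 to 12.09, lie above 10 of the 11 points of passage 2.

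Xbp1, the transcription factor of the IRE1 branch, was highest in the tumours that had RANK-Fc in both passages. Its level was 16.22 and 15.68 in the passage 1 controls, 16.38, 16.35 and 16.46 with RANK-Fc in passage 1, 16.49 and 16.34 in the passage 2 controls, 16.43, 16.52 and 16.13 with current RANK-Fc, 16.28, 16.38 and 16.19 with prior RANK-Fc, and 16.83, 16.62 and 17.14 with prior and current RANK-Fc. The 3 tumours of the last group stood above all 13 others, whose highest was 16.52. In order of group means, prior and current (16.86 ± 0.26, SD, n = 3) was followed by the passage 2 controls (16.42 ± 0.11, n = 2), the passage 1 RANK-Fc tumours (16.40 ± 0.06, n = 3), current (16.36 ± 0.20, n = 3), prior (16.28 ± 0.09, n = 3) and the passage 1 controls (15.95 ± 0.38, n = 2). Only the first of these steps parted neighbouring groups without overlap.

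The F test over groups gave Xbp1 an adjusted p of 0.0491. With 1 tumour left out at a time the call was kept only without passage 1 control replicate 1 or without prior and current replicate 2. It was lost without any 1 of the other 14 tumours, with an adjusted p of 0.0551 to 0.151, the highest without prior and current replicate 1. It was also lost under 6 of 11 other settings, with an adjusted p of 0.0503 to 0.126. The pairwise differences were 0.64 ± 0.15 (SE) over prior alone, a 1.56-fold higher level, 0.51 ± 0.16 over current alone and 0.51 ± 0.18 over the passage 2 controls. None of the 3 passed in limma over all genes, with adjusted p of 0.215, 0.154 and 0.409. The interaction term, which asks whether RANK-Fc in both passages differs from the sum of prior and current alone, was 0.64 ± 0.22 for Xbp1 (adjusted p = 0.645). Spliced and unspliced Xbp1 RNA were not told apart here. Plasma and B cell markers, the genes of another cell type known for high Xbp1, were at a mean of 8.18 to 8.47 in the prior and current group and 8.33 to 9.03 in the other 5 groups, with 9 of 13 measured and Cd79a and Tnfrsf17 above background in 0 tumours.

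Herpud1 encodes an ER membrane protein that helps to assemble the machinery of ER-associated degradation, and its level was lower in passage 2 than in passage 1. It was at 11.74 and 11.88 in the passage 1 controls, 11.96, 12.09 and 11.77 with RANK-Fc in passage 1, 10.76 and 10.80 in the passage 2 controls, 11.05, 10.91 and 10.98 with current, 10.80, 11.53 and 11.22 with prior, and 11.02, 11.34 and 11.97 with prior and current RANK-Fc. The 5 tumours of passage 1 were all above 10 of the 11 tumours of passage 2, the exception being prior and current replicate 3. Both passage 2 controls were at the bottom, below all 3 tumours with current RANK-Fc and all 3 with prior and current RANK-Fc. The F test gave an adjusted p of 0.0160. That call was lost without passage 1 RANK-Fc replicate 1 (adjusted p = 0.0572), without passage 1 RANK-Fc replicate 2 (0.0506) and on Agilent's processed signals (0.0950), and was kept under the other 24 alternatives, with an adjusted p down to 0.00776.

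Between the controls of the 2 passages Herpud1 fell by 1.13 ± 0.22 (SE) on the log2 scale, 2.18-fold, with an adjusted p of 0.0183. It was the 1 member called in that comparison, in which limma called 469 genes or 3.32%. With either control tumour of passage 1 or passage 2 left out the call was lost, at an adjusted p of 0.0561 to 0.261 and a difference of -1.26 to -0.99, and it was also lost on Agilent's processed signals (0.0895). Averaged over the controls and the tumours first given RANK-Fc, the fall was 1.06 ± 0.14 (SE), 2.08-fold, with an adjusted p of 0.000792. That averaged call held under all 28 alternatives tried, with differences from -1.20 to -0.98.

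Dnajc3, a co-chaperone of HSPA5 that also inhibits the kinase PERK, was the other member lower in passage 2. It was at 10.20 and 10.15 in the passage 1 controls, 10.02, 10.29 and 10.35 with RANK-Fc in passage 1, 9.81 and 9.35 in the passage 2 controls, 9.60, 9.86 and 10.07 with current, 9.91, 9.85 and 9.60 with prior, and 10.08, 9.81 and 9.62 with prior and current RANK-Fc. Of the 11 tumours of passage 2, 9 were below all 5 of passage 1, and the 2 that overlapped were current replicate 3 and prior and current replicate 1. Averaged as above, Dnajc3 fell by 0.46 ± 0.13 (SE), 1.37-fold, with an adjusted p of 0.0377. The call was lost without passage 1 control replicate 1 (adjusted p = 0.111) or 2 (0.103), passage 1 RANK-Fc replicate 2 (0.0846) or 3 (0.0651), passage 2 control replicate 2 (0.190), current replicate 1 (0.0876) or 2 (0.0629), or prior replicate 2 (0.0535). It was also lost on Agilent's processed signals (0.0766) and in a fit on only the groups compared (0.0536), and was kept under the other 18 of 28 alternatives.

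In that averaged passage comparison 2 of the 10 members were called, both lower, where 1703 genes or 12.1% of all tested were called. Of the 10 differences 5 were positive, with a median of -0.01 for the members and -0.01 for all genes. Xbp1 differed by 0.23 ± 0.13 and Creld2 by -0.20 ± 0.11, neither past the threshold.

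Genes on a salivary gland secretory list also differed between the passages in the same samples, though not all of them are confined to other glands. Of 10 salivary gland secretory genes, 7 were measured, and their mean log2 level was 9.86 to 11.89 in passage 1, 7.79 to 7.84 in the passage 2 controls, 7.75 to 8.76 with current, 9.03 to 9.57 with prior, and 8.90 to 9.56 with prior and current RANK-Fc. In the averaged comparison 6 of the 7 differences between passages were negative. For prior RANK-Fc, averaged over both backgrounds, limma called 1 of the 7 higher, where it called 0.354% of all genes. Smr3a was above background in 5 of 16 tumours and Bpifa2 in 3, while Pip, which mammary epithelium also makes, was above it in 14. Fibroblast markers, 10 of 10 measured, had a mean of 11.19 to 11.73 in passage 1 and 9.96 to 12.68 in passage 2, where all but current replicate 3 and prior replicate 1 were below every passage 1 tumour. Of the 10 differences between passages 9 were negative (median -0.83), and 0 passed. Adipocyte markers, 9 of 10 measured, had a mean of 8.76 to 10.87 in passage 1 and 8.04 to 9.81 in passage 2, with 1 of 9 differences positive (median -0.85) and 0 past the threshold. Plasma and B cell markers had a mean of 8.40 to 9.03 in passage 1 and 8.18 to 8.88 in passage 2. Of these, Jchain was at 10.29 to 12.01 in passage 1 and 8.62 to 11.78 in passage 2. Its level in passage 2 was below every passage 1 tumour except in current replicate 1 and prior replicates 1 and 2. Not all genes of that list followed Jchain. Sdc1 was at 9.58 to 9.98 in passage 1 and 9.39 to 10.57 in passage 2, and Blnk at 12.68 to 13.27 and 12.57 to 13.95. Prior replicate 2, the highest of passage 2 for Jchain, had Herpud1 at 11.53. Prior and current replicate 3, the highest of passage 2 for Herpud1 (11.97), had Jchain at 9.99. The part of these cell types in the Herpud1 and Dnajc3 differences was not tested.

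**Figure D2:**
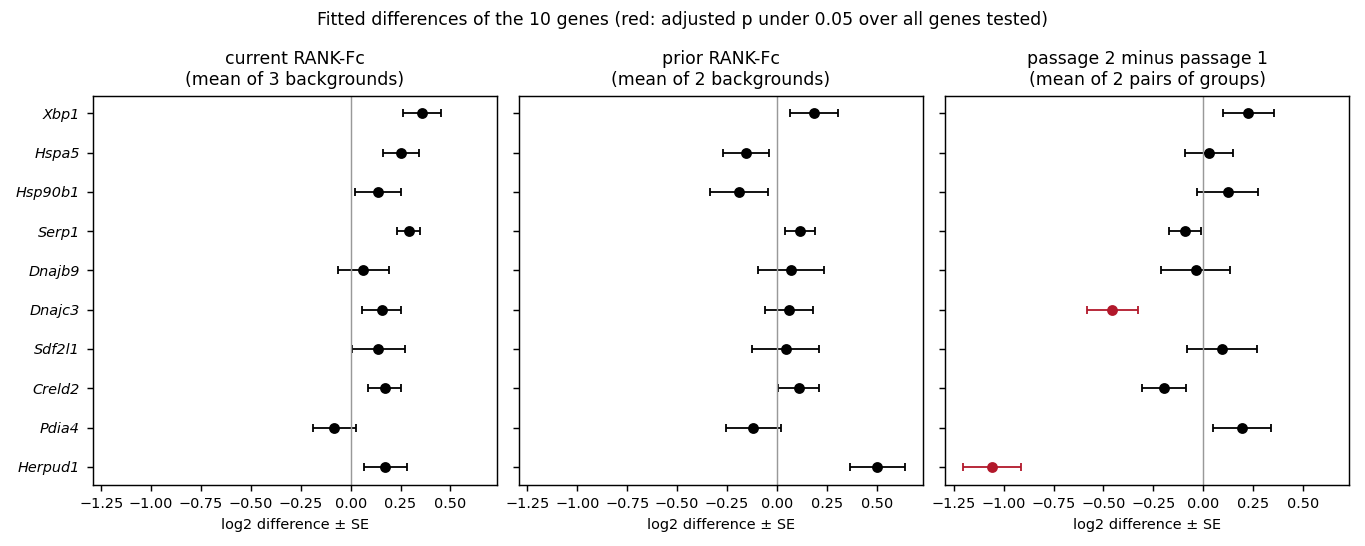
Fitted log2 difference with its standard error (horizontal axis) for each of the 10 genes (vertical axis) in 3 comparisons: current RANK-Fc averaged over 3 backgrounds, prior RANK-Fc averaged over 2, and passage 2 minus passage 1. Red points passed the threshold; these are Herpud1 (-1.06) and Dnajc3 (-0.46) in the passage comparison, and no point is red for RANK-Fc.

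For current RANK-Fc no member passed the threshold when its effect was averaged over 3 backgrounds: passage 1, passage 2 without prior RANK-Fc and passage 2 with it. Of the 10 differences 9 were positive, from -0.08 for Pdia4 to 0.36 for Xbp1, with a median of 0.16 against 0.0045 for all genes tested, of which 7344 were positive. Under the alternatives the number of positive differences ranged from 8 to 10. Limma called 0 of the 14125 genes, 0%, in this comparison, and 923 genes and 3 members had an unadjusted p under 0.05. Those members were Serp1, Xbp1 and Hspa5.

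Serp1, a small membrane protein that sits at the translocon and protects unfolded proteins during stress, had the smallest p of the 10 for current RANK-Fc. It was at 12.22 and 12.47 in the passage 1 controls, 12.59, 12.97 and 12.86 with RANK-Fc in passage 1, 12.31 and 12.50 in the passage 2 controls, 12.57, 12.56 and 12.53 with current, 12.37, 12.47 and 12.43 with prior, and 12.70, 12.48 and 12.92 with prior and current RANK-Fc. Of the 9 tumours under RANK-Fc when collected, 8 were above all 7 others, and the ninth, prior and current replicate 2, lay at 12.48 within their range of 12.22 to 12.50. The averaged difference was 0.29 ± 0.06 (SE), 1.22-fold (unadjusted p = 0.000345, adjusted p = 0.414). It was positive in each background, at 0.44 ± 0.11 in passage 1, where the 3 treated tumours were above both controls, 0.15 ± 0.11 in passage 2 without prior RANK-Fc, and 0.29 ± 0.09 with it. In the F test Serp1 missed the threshold (adjusted p = 0.0605) and passed it under 3 of 27 alternatives: without prior and current replicate 2 (0.0461), with trended variance (0.0492) and with the uncorrected correlation between the channels of an array (0.0234). The highest adjusted p over these alternatives was 0.441.

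Xbp1 differed by 0.36 ± 0.10 (SE) for current RANK-Fc (unadjusted p = 0.00282, adjusted p = 0.623). By background it was 0.43 ± 0.17 in passage 1, -0.0014 ± 0.17 in passage 2 without prior RANK-Fc and 0.64 ± 0.15 with it, and 4 of the 9 treated tumours were above all 7 others. The passage 1 difference was 0.15 without control replicate 2 and 0.72 without control replicate 1. Hspa5 differed by 0.25 ± 0.09 (unadjusted p = 0.0150, adjusted p = 0.695), and 5 of its 9 treated tumours were above all 7 others, with 0.48 ± 0.16 in passage 2 without prior RANK-Fc and 0.08 ± 0.14 with it. Where tumours were compared within a passage, 0 members passed in the 5 comparisons that follow. Passage 1 RANK-Fc against control had 0% of genes called, with 220 genes and 2 members at an unadjusted p under 0.05. In passage 2 against the controls, current had 0% (551 genes, 2 members), prior 0.00708% (1085 genes, 2 members) and prior and current 0.0708% (1257 genes, 3 members). Prior and current against prior had 0% (1393 genes, 2 members). Those within passage 2 share control or treated tumours with each other.

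Prior RANK-Fc, averaged over both backgrounds of passage 2, also left 0 members past the threshold, where limma called 50 genes or 0.354% and 2201 genes and 1 member had an unadjusted p under 0.05. That member was Herpud1, at 0.50 ± 0.14 (SE), 1.42-fold (unadjusted p = 0.00302, adjusted p = 0.121). Prior and current against current RANK-Fc called 20 genes, 0.142%, and 0 members, with 2355 genes and 3 members at an unadjusted p under 0.05. Those 3 were Xbp1 (0.51 ± 0.16), Herpud1 (0.56 ± 0.18) and Hspa5 (-0.35 ± 0.15). The tests of how the RANK-Fc effect differed between passages and of the interaction of prior and current each called 0 of all genes, 0%, and 0 members. In these tests 251 and 943 genes, and 0 and 2 members, had an unadjusted p under 0.05.

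The 2 major chaperones followed each other. Hspa5 encodes BiP, the HSP70 of the ER lumen and the protein that holds the stress sensors inactive, and Hsp90b1 encodes GRP94, the HSP90 of the ER. Hspa5 was at 15.15 and 14.83 in the passage 1 controls, 15.17, 15.00 and 15.25 with RANK-Fc in passage 1, 14.99 and 14.69 in the passage 2 controls, 15.05, 15.25 and 15.54 with current, 14.94, 14.84 and 14.98 with prior, and 15.20, 14.82 and 15.00 with prior and current RANK-Fc. Hsp90b1, in the same order, was at 14.17 and 14.01, then 14.20, 13.91 and 14.31, then 14.04 and 14.02, then 14.23, 14.28 and 14.62, then 13.88, 13.91 and 14.38, and then 14.21, 13.67 and 14.30. Current replicate 3 was the highest of the 16 tumours for both genes, and with both genes the 3 current tumours were above the 2 passage 2 controls. In the order of group means every group of both genes overlapped the next. The F test gave adjusted p of 0.291 and 0.659.

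The co-chaperones Dnajb9 and Sdf2l1 did not pass the test over the groups. Dnajb9, a partner of HSPA5 that attenuates IRE1, was at 9.69 and 9.43 in the passage 1 controls, 9.50, 9.40 and 9.62 with RANK-Fc in passage 1, 9.60 and 9.54 in the passage 2 controls, 9.25, 9.85 and 9.37 with current, 9.03, 9.46 and 10.14 with prior, and 9.71, 9.88 and 9.67 with prior and current RANK-Fc. The prior group alone spanned the whole range of the 16 tumours, and the 3 prior and current tumours were above both passage 2 controls. Its second probe, which ran from 6.92 to 7.80, had a Pearson r of 0.66 with the first over the 16 tumours. Sdf2l1, a component of the ER chaperone complex, was in the same order at 10.80 and 10.25, then 10.30, 10.06 and 10.65, then 10.21 and 10.48, then 10.28, 10.80 and 10.94, then 10.35, 10.41 and 10.59, and then 10.76, 10.33 and 10.91. In the order of group means every group of Sdf2l1 overlapped the next. The F test gave adjusted p of 0.975 and 0.726.

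Pdia4 is a protein disulphide isomerase, and Creld2 encodes a stress-induced ER protein that is also secreted. Pdia4 was at 10.66 and 10.43 in the passage 1 controls, 10.10, 10.00 and 10.57 with RANK-Fc in passage 1, 10.23 and 10.78 in the passage 2 controls, 10.43, 10.45 and 10.89 with current, 10.25, 10.40 and 10.43 with prior, and 10.56, 10.23 and 10.45 with prior and current RANK-Fc. Creld2 was in the same order at 12.97 and 13.07, then 13.08, 13.18 and 13.36, then 12.70 and 12.71, then 12.99, 12.96 and 13.29, then 13.06, 13.20 and 12.77, and then 13.18, 12.86 and 12.78. In the order of group means every group of Pdia4 overlapped the next. For Creld2 the 2 passage 2 controls were the lowest of all 16 tumours, below each of the 9 treated tumours of that passage, and the 9 or 10 spots of its probe in a channel had an SD of 0.13 to 0.24. Creld2 differed from these controls by 0.38 ± 0.15 (SE) with current and 0.34 ± 0.15 with prior RANK-Fc, neither past the threshold (adjusted p = 0.999 and 0.603).

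The relation to milk protein RNA was examined with a score, the mean log2 level of Csn1s1, Csn1s2a, Csn1s2b, Csn2, Csn3, Wap, Lalba and Glycam1. These are the caseins, whey acidic protein, alpha-lactalbumin and a mucin-like milk protein, and all 8 were measured. The score was 10.53 and 10.23 in the passage 1 controls, 11.49, 9.78 and 11.83 with RANK-Fc in passage 1, 11.94 and 12.11 in the passage 2 controls, 13.05, 13.30 and 15.47 with current, 9.94, 11.48 and 11.31 with prior, and 13.23, 12.45 and 12.69 with prior and current RANK-Fc. Of the 9 tumours under RANK-Fc when collected, 6 were above all 7 others, and these were the current and the prior and current groups. Limma called 0 of the 8 milk protein genes for current RANK-Fc (8 of 8 positive, median difference 1.27), where it called 0 of all 14125 genes. In the averaged passage comparison it called 5 of 8 higher, beside 12.1% of all genes. Between the controls of the passages it called 0 of 8, beside 3.32%. The score did not follow the passage alone. Its mean was 10.38 in controls and 11.03 with RANK-Fc in passage 1. In passage 2 it was 12.03 in controls, 13.94 with current, 10.91 with prior, and 12.79 with prior and current RANK-Fc. Csn2, beta-casein, spanned 7.86 to 17.98, a far wider range than any of the 10 ER genes, and Glycam1 was above background in 12 of 16 tumours.

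None of the 10 ER genes passed in the relation to the score over 16 tumours. Limma's slope on the score called 992 of 14117 genes, 7.03%, and 0 members, with 3346 genes and 5 members at an unadjusted p under 0.05. By permutation 4.23% of genes passed for Pearson's r and 5.61% for Spearman's rho, again with 0 members, as 1 family of 14117 relations each. The permutations treated tumours as exchangeable, without regard to group, passage, dye or array. The 4 highest r were those of chaperones and folding factors: Sdf2l1 (r = 0.589, permutation p = 0.0156, adjusted p = 0.130, rho = 0.532, permutation p = 0.0361, adjusted p = 0.178), Hsp90b1 (r = 0.587, permutation p = 0.0183, adjusted p = 0.141, rho = 0.518, permutation p = 0.0426, adjusted p = 0.193), Hspa5 (r = 0.562, permutation p = 0.0247, adjusted p = 0.163, rho = 0.474, permutation p = 0.0673, adjusted p = 0.247) and Pdia4 (r = 0.558, permutation p = 0.0255, adjusted p = 0.166, rho = 0.441, permutation p = 0.0888, adjusted p = 0.286). Of the 10 values of r 8 were positive, and their median was 0.257 against 0.007 over all genes. Herpud1 (r = -0.434, permutation p = 0.0894, adjusted p = 0.311, rho = -0.394, permutation p = 0.132, adjusted p = 0.356) and Dnajc3 (r = -0.246, permutation p = 0.360, adjusted p = 0.632, rho = -0.341, permutation p = 0.197, adjusted p = 0.441) were negative.

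**Figure D3:**
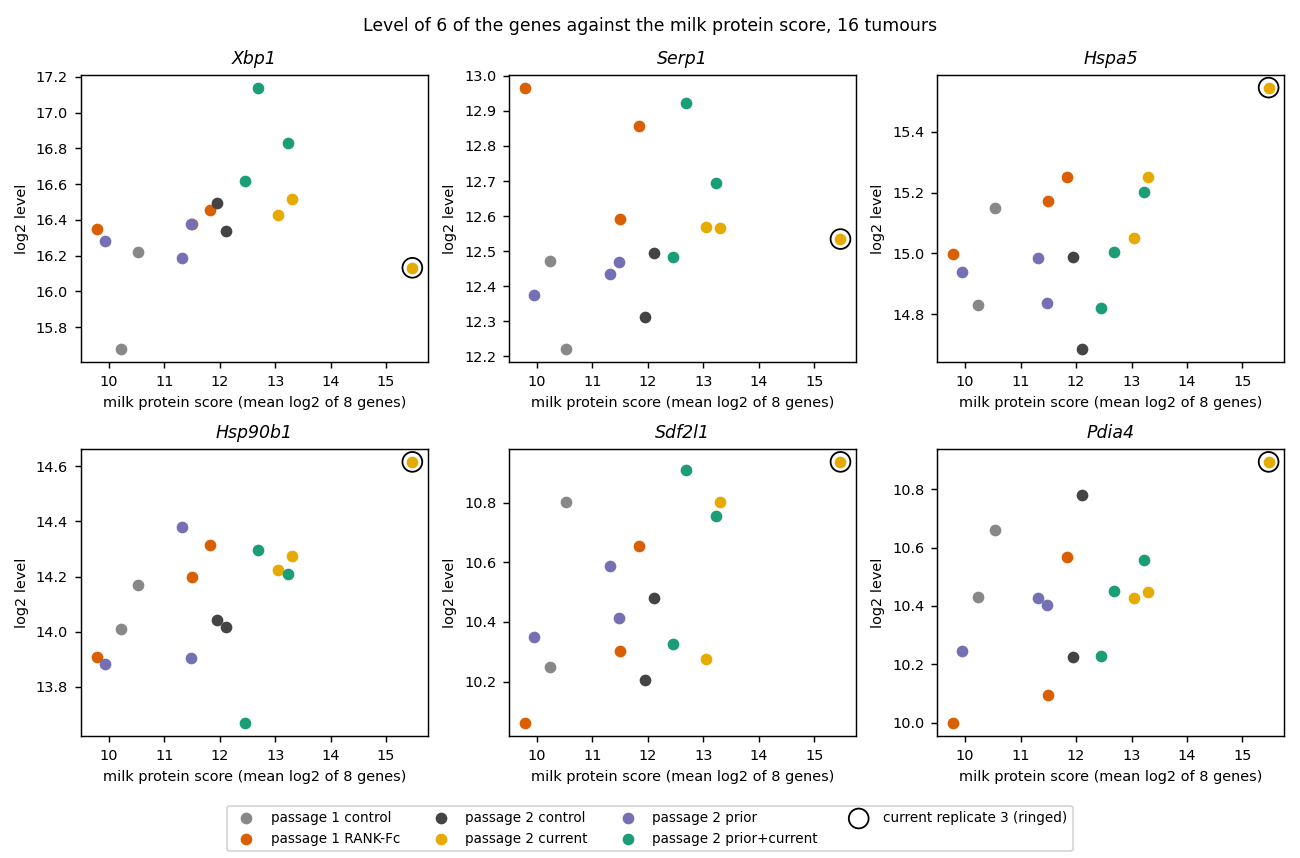
Log2 level of 6 of the genes (vertical axes) against the milk protein score (horizontal axis, mean log2 level of 8 milk protein genes) in the 16 tumours, coloured by group; the ring marks current replicate 3. At a score of 15.47 that tumour is the highest for Hspa5 (15.54), Hsp90b1 (14.62), Sdf2l1 (10.94) and Pdia4 (10.89) but among the lowest for Xbp1 (16.13).

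The chaperone relations were weaker without 1 tumour. Current replicate 3 had the highest score, 15.47 against at most 13.30 in the other 15, and it was also the highest tumour for Hspa5, Hsp90b1, Sdf2l1 and Pdia4. Without it r was 0.265 for Hspa5, 0.362 for Hsp90b1, 0.460 for Sdf2l1 and 0.339 for Pdia4. Xbp1 went the other way, from r = 0.349 (permutation p = 0.182, adjusted p = 0.449) and rho = 0.515 (permutation p = 0.0443, adjusted p = 0.196) over 16 tumours to r = 0.663 (permutation p = 0.00487, adjusted p = 0.0647) and rho = 0.793 (permutation p = 0.00068, adjusted p = 0.0295) over the 15. Of all genes, 96.8% had a lower r than Xbp1 there, and limma's slope gave Xbp1 an adjusted p of 0.0335. Over the 32 alternatives tried, r of Xbp1 ranged from 0.08 to 0.71 and the adjusted p of its slope from 0.0335 to 0.911. In this set of 15, by permutation, 5.39% of genes passed by r and 5.10% by rho. The share called by limma's slope in this set is not given here.

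Leaving out the 2 tumours farthest from the median score, current replicate 3 and passage 1 RANK-Fc replicate 2, left Xbp1 as the highest of the 10. It was then at r = 0.715 (adjusted p = 0.0939 by permutation and 0.0359 by limma's slope) and rho = 0.829 (permutation p = 0.00041, adjusted p = 0.0603). Over these 14 tumours 0.184% of all genes passed by permutation of r and 0.234% of rho, tests that Xbp1 did not pass. The share called by limma's slope in this set is not given here. Over all alternatives that slope called 0 to 1274 genes. Serp1 went from r = 0.112 to r = 0.534 (permutation p = 0.0493, adjusted p = 0.269); the passage 1 tumour left out had the highest Serp1 and the lowest score. Hspa5, Hsp90b1, Sdf2l1 and Pdia4 were at r = 0.287, 0.281, 0.322 and 0.132.

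Current replicate 3 stood apart in more than milk protein RNA. Its fibroblast markers had a mean log2 level of 12.68, against 9.96 to 11.73 in the other 15 tumours, and its macrophage and neutrophil markers, 11 of 12 measured, 12.27 against 10.81 to 11.75. Its skeletal muscle markers, of which 3 of 10 were measured, were at 9.55, second to 10.49 in prior replicate 1 and above 7.87 to 8.15 in the other 14. The part of these cells in its chaperone levels was not tested. Its luminal epithelial markers, at 12.74, lay inside the range of the others.

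Within passage 2, 11 tumours, all 10 values of r were positive and none passed, with 0 of 14117 genes called by either coefficient. The values ran from 0.009 for Herpud1 to 0.749, with a median of 0.399 against 0.034 over all genes. Hspa5 led with r = 0.749 (permutation p = 0.0105, adjusted p = 0.339, rho = 0.755, permutation p = 0.00990, adjusted p = 0.468), followed by Pdia4 at r = 0.661, Hsp90b1 at 0.638 and Sdf2l1 at 0.610. Without current replicate 3, over 10 tumours, Hspa5 was at r = 0.481, Serp1 at 0.591 and Xbp1 at 0.574. There 9 of the 10 values were positive, and they ran from -0.002 to 0.591. Limma's slope in passage 2 called 0.0708% of genes and 0 members, with 1786 genes and 3 members at an unadjusted p under 0.05. The limma slope within the 6 groups called 0% and 0 members, with 969 genes and 4 members at that level: Pdia4 (0.20 ± 0.06, SE), Sdf2l1 (0.225 ± 0.077), Hsp90b1 (0.20 ± 0.07) and Hspa5 (0.15 ± 0.05), in log2 per unit of the score. Current replicate 3, the highest tumour for these 4 genes and for the score, was part of that fit. A slope within groups without that tumour was not computed. No coefficient was computed for the 5 tumours of passage 1.

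The values of r were also taken for each dye apart. Each dye labelled 8 tumours, and current replicate 3 was labelled with Cy3. Hsp90b1, Sdf2l1, Pdia4 and Hspa5 had r of 0.870, 0.768, 0.765 and 0.669 among the Cy3 tumours and 0.145, 0.279, 0.117 and 0.345 among the Cy5 tumours. Xbp1, Serp1 and Dnajb9 had 0.203, -0.244 and -0.138 with Cy3 and 0.824, 0.70 and 0.530 with Cy5. Dnajc3, Creld2 and Herpud1 had -0.301, 0.030 and -0.659 with Cy3 and -0.101, 0.065 and -0.232 with Cy5. This split was examined after the values had been seen, and whether r differed between the dyes was not tested.

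**Figure D4:**
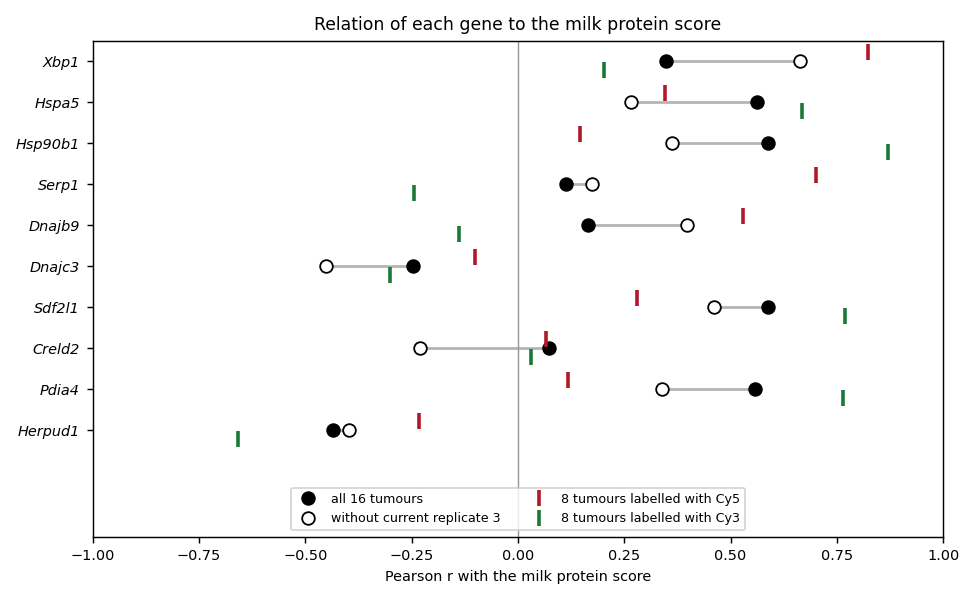
Pearson r of each gene (vertical axis) with the milk protein score (horizontal axis): filled circles, all 16 tumours; open circles, 15 tumours without current replicate 3; red and green bars, the 8 tumours of each dye. Hspa5, Hsp90b1, Sdf2l1 and Pdia4 lie lower without that tumour (for Hspa5 0.265 in place of 0.562) and Xbp1 higher (0.663 in place of 0.349).

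The 10 genes did not vary as 1 block. Over the 45 pairs the median r across 16 tumours was 0.096, from -0.394 to 0.773, and 31 pairs were positive; for pairs drawn from all genes tested the median was 0.003. The closest pair was Hspa5 and Hsp90b1 (r = 0.773), followed by Dnajc3 and Creld2 (0.764). Between these pairs r was 0.542 for Hspa5 with Creld2, 0.488 for Hspa5 with Dnajc3, 0.199 for Hsp90b1 with Creld2 and 0.050 for Hsp90b1 with Dnajc3. Sdf2l1 and Pdia4 had r = 0.734 and Hsp90b1 and Sdf2l1 0.693, and the 6 pairs among Hspa5, Hsp90b1, Sdf2l1 and Pdia4 ran from 0.319 to 0.773. Without current replicate 3 the pair Hspa5 and Pdia4 dropped from 0.319 to -0.015, while Hspa5 and Hsp90b1 kept 0.656. Xbp1 had its highest r with Serp1 (0.473), Sdf2l1 (0.327) and Dnajb9 (0.259). It was at 0.072 with Hspa5, 0.025 with Hsp90b1, -0.025 with Herpud1, -0.106 with Pdia4, -0.207 with Creld2 and -0.265 with Dnajc3. These coefficients are descriptions over tumours that share arrays in pairs, and they carry no test.

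**Figure D5:**
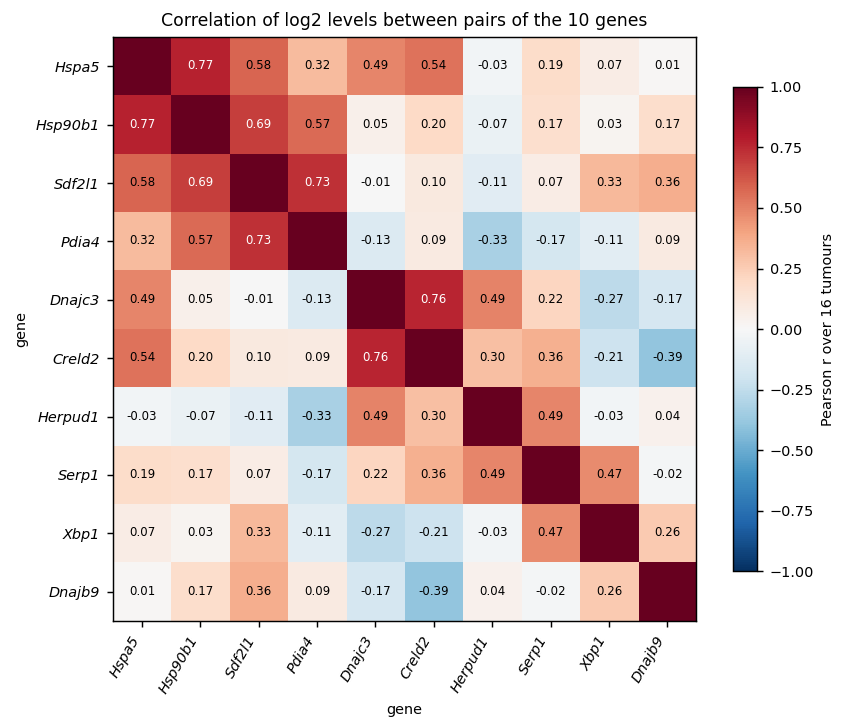
Pearson r over 16 tumours between the log2 levels of each pair of the 10 genes (rows and columns are genes; red positive, blue negative). The highest values are Hspa5 with Hsp90b1 (0.77) and Dnajc3 with Creld2 (0.76), and Xbp1 is near 0 with both Hspa5 (0.07) and Hsp90b1 (0.03).

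Over all genes outside the list, those most like the mean of the 10 members across the 16 tumours were Rpn2 (r = 0.86), a subunit of the enzyme that attaches N-glycans in the ER, Ero1b (0.84), an oxidase of the ER folding pathway, Ccser2 (0.81), Atp5mpl (0.80) and Lix1 (0.80). Those most like Xbp1 alone were St7l (0.84), Cct6b (0.83) and Vil1 (0.81). These are the highest of the coefficients over all genes tested and are given with no test.

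Some other genes of the pathway passed the tests. Of the sensors and transducers, 10 of 11 measured, Creb3l4 and Ern1 differed over the groups (4.77% of all genes did) and 3 followed the milk score by limma's slope (7.03% of all genes). Creb3l1, a membrane-bound transcription factor of secretory cells, rose with the score (0.19 ± 0.03 log2 per unit, SE, adjusted p = 0.00367, r = 0.84), while Ern1, the gene of the sensor IRE1 alpha that splices Xbp1 RNA, fell with it (-0.22 ± 0.05, adjusted p = 0.0156, r = -0.76). Mbtps1, the protease that activates ATF6, fell as well (-0.14 ± 0.03, adjusted p = 0.0238). Within passage 2 none of the 3 slopes passed, at 0.22 for Creb3l1 (adjusted p = 0.132), -0.09 for Ern1 (0.397) and -0.10 for Mbtps1 (0.435). In the averaged passage comparison 4 of the 10 were called, where 12.1% of all genes were. Ern1 was lower in passage 2, by -0.88 ± 0.14 (adjusted p = 0.00176), as were Creb3l4, by -0.92 ± 0.17 (0.00451), and Mbtps1, by -0.44 ± 0.13 (0.0435), while Creb3l1 was higher, by 0.54 ± 0.13 (0.0165).

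Among 22 other ER chaperones and folding enzymes, all measured, 3 rose with the milk score and none fell, where 7.03% of all genes were called in either direction. They were Fkbp11, a prolyl isomerase of secretory tissues (0.20 ± 0.03, adjusted p = 0.00150, r = 0.86), Qsox1, a sulfhydryl oxidase of the secretory pathway (0.24 ± 0.04, 0.00332, r = 0.85), and Ero1a, an oxidase that recharges disulphide isomerases (0.23 ± 0.06, 0.0392, r = 0.71). Within passage 2 the adjusted p of their slopes was 0.135, 0.135 and 0.422. The list had a median slope of 0.0439 against 0.0014 over all genes, and the 10 members had 0.0552.

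Of 23 translocon and signal peptide genes, 0 passed over the groups or with the score, the smallest F test p being for Sec11c (adjusted p = 0.0894) and Sec61g (0.163). ER to Golgi transport, 22 genes, had 1 that differed over the groups, the cargo receptor gene Lman1 (adjusted p = 0.0198), which was lower in passage 2 by -0.43 ± 0.07 (SE). ER-associated degradation, 18 of 19 measured, had 1, Derl3 (adjusted p = 0.0207), a Derlin of that machinery, lower in passage 2 by -0.66 ± 0.12. In the averaged passage comparison 4 of these 18 fell and 0 rose, where 12.1% of all genes were called, 1111 lower and 592 higher.

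In the PERK, ATF4 and CHOP arm, 18 genes measured, 4 rose between passages and 0 fell, beside the same 12.1% of all genes. Atf3, a transcription factor induced by that arm, was higher in passage 2 by 0.84 ± 0.13 (SE, adjusted p = 0.00176) and rose with the milk score (0.23 ± 0.05, adjusted p = 0.0163), with a slope of 0.13 within passage 2 that did not pass (adjusted p = 0.360). Asns, asparagine synthetase, differed over the groups (adjusted p = 0.0250), with 0.59 ± 0.10 for current RANK-Fc (adjusted p = 0.210).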

How the data were processed

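RNA of 16 tumours was labelled with Cy5 or Cy3 and read on 8 two-colour Agilent arrays of 1 slide, each tumour in 1 channel. The spot intensities (median signal and background per channel) are as deposited by the authors and not yet normalised; the scanner images had been read with Feature Extraction, version 10.7.3.1, as the file headers record. The log10 ratio of red over green and the flags for outlier and above-background spots come from the same scanner software, per the file headers; the ratio served only to check the direction of the channels. A further deposited table of normalised values was not used here, because its columns could not be tied to the labels.

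Control spots and the 239 to 337 outlier spots per array were left out. Intensities were background-corrected (normexp, offset 50), normalised within arrays by loess and between them by Aquantile in limma 3.58.1 (R 4.3.3). Spots of a probe were averaged, 27655 of 55681 probes had no symbol in the RefSeq table, and the brightest passing probe stood for a gene with several. The 14125 genes tested had a probe that was well above background throughout 1 group or more. Each gene was fitted on 6 group means and dye, with the correlation between the channels of an array (0.4152, corrected to 0.2097 after a simulation showed bias in small designs), and p-values were adjusted by Benjamini-Hochberg over all genes, with 0.05 as threshold. The residual degrees of freedom were 9. Permutation tests, two-sided with 100000 resamples, used Python 3.11.15 and numpy 2.4.6. They shuffled the score freely over the tumours of a set, so their p-values take no account of group, passage, dye or shared array. The script was tested on simulated data. The precision is limited by the number of arrays. Each tumour was read once, so the spread behind limma's p-values holds labelling and array noise beside differences between tumours. Whether tumours of a group came from the same donor tumour is not given by the labels.

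The 10 genes and all lists were chosen with earlier results of these data known. Named beside the 10 were, per pathway list, at most 5 genes past the threshold in the F test or the milk relation and otherwise the 2 with the smallest F test p, plus the 5 genes most like the mean of the 10 and the 3 most like Xbp1. Alternatives changed the background correction, normalisation, filter, probe rule, variance model and samples.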

Additional observations from a re-analysis of the deposited data

How the results depend on the processing

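No paired analysis was possible because the labels carry no replicate number shared between groups, and numbers were given in accession order; tumours that share an array were tied in the fit by the intraspot correlation. The F test over groups called 2 of the 10 genes. It called 1 without background subtraction, with median centring, with no filter, with the mean over the probes of a gene and with an intraspot correlation of 0, called 0 on Agilent's processed signals, and called 0 to 3 with 1 tumour left out. Between the controls of the passages the count was 1, then 0 on Agilent's processed signals and 0 to 1 with 1 tumour left out. Averaged, the passage comparison called 2, then 1 on Agilent's processed signals, 1 in a fit on only the groups compared and 1 to 2 with 1 tumour left out. The slope on the milk protein score called 0, then 1 on Agilent's processed signals, 1 without the 2 tumours farthest from the median score and 0 to 1 with 1 tumour left out. The causes were not tested. No called value changed sign under the alternatives run. Passage and treatment calls over all genes moved more: the F test called 266 to 938 genes, the control passage comparison 11 to 587, and the milk protein slope 0 to 1274. The Cy5 and Cy3 split and passage 2 without current replicate 3 were added after seeing the data. Groups of 2 or 3 tumours, each on 1 channel, limit the precision.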
